A study of Mus musculus with 230 samples.

Results

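Gene expression in the basolateral amygdala (BLA) was compared with that in the ventral hippocampus (vHipp) of male mice that had self-administered saline. Every BLA and vHipp library of mice with saline self-administration, no challenge injection and 24 h of withdrawal was used, and these are called the 24 h saline mice. This gave 14 of the 230 RNA-seq libraries in the series, 7 from each region, out of 43 libraries of this condition over 6 brain regions. Each library's title joins its region to the number of the mouse, so that BLA-182 and Hipp-182 came from 1 animal. 6 mice had both regions (Hipp-182, Hipp-185, Hipp-191, Hipp-204, Hipp-205 and Hipp-225, each with the BLA library of that number), and BLA-193 and Hipp-201 had no partner. A mouse is called below by the title of its vHipp library. All animals were male C57BL/6J mice from The Jackson Laboratory, and their age was not given in the sources used here. The same regional difference was then read in 26 other mice with both regions, in 5 conditions: 6 after cocaine self-administration and 24 h of withdrawal, and 20 after 30 d of withdrawal and an injection 1 h before tissue collection. Of those 20, 5 had self-administered saline and 6 saline before a saline and a cocaine injection respectively, and 5 and 4 had self-administered cocaine before the same injections. Regions were dissected as tissue, so each library mixes neurons, glia and vessels, and fewer cells of a type cannot be told apart from less RNA per cell.

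The BLA is a cortex-like nucleus whose principal cells are glutamatergic pyramidal neurons that send axons to the hippocampus, prefrontal cortex and nucleus accumbens, and it is best known for attaching emotional value to cues. It is bordered by the GABAergic central nucleus, by intercalated cell clusters and, further on, by the striatum, all made largely of inhibitory projection neurons of a different developmental origin. The vHipp holds dentate granule cells, CA3 and CA1 pyramidal cells and the subiculum, chained by excitatory synapses, and its output to the amygdala, prefrontal cortex and accumbens is linked to anxiety and reward. Both regions signal chiefly through glutamate and GABA, so genes that tell them apart tend to be transcription factors, peptides, receptor subunits and adhesion molecules.

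The count tables held 43346 genes, and totals over genes ran from 11866570 to 25364051 counts in BLA (median 22849046) and from 18811305 to 26723794 in vHipp (median 21334403). Levels are given as counts scaled to library size (CPM), as the lowest and highest of the 7 libraries with the median. Differences are log2 fold changes of BLA over vHipp with a standard error (SE) from the fit of the 6 paired mice. The SE is the absolute log2 difference divided by the square root of the fit's F statistic. On a principal component plot of all 14 libraries the first axis held 49.4% of the variance and separated the regions, with Hipp-204 and Hipp-205 nearest to BLA. A pair of the other vHipp libraries carried transcripts of other tissue. Hipp-182 held choroid plexus transcripts, with Ttr, the transthyretin gene of that tissue, at 17500 CPM against 24.8 or less in the other vHipp libraries, and the 17 choroid plexus genes listed summed to 24200 CPM. Hipp-191 held transcripts of midbrain dopamine neurons, with the dopamine transporter gene Slc6a3 at 160.8 CPM and tyrosine hydroxylase (Th) at 76.4 CPM, against 1.01 CPM or less for Slc6a3 in the other 6. These genes were picked after their values were seen. The part these tissues play in single results was not tested, and counts are therefore also given without these mice, and without the Hipp-204 and Hipp-205 mice.

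Prox1, the homeobox gene that defines dentate granule cells, ran from 14.4 to 29.2 (median 22.1) CPM in BLA and from 20.97 to 133 (median 60) CPM in vHipp. The regions overlapped, because Hipp-182, Hipp-201 and Hipp-225 (20.97, 24.3 and 21.4 CPM) lay within the BLA range while Hipp-185, Hipp-191, Hipp-204 and Hipp-205 (60.0, 121, 124 and 133 CPM) lay above it. The paired difference was -1.59 (SE 0.45, adjusted p = 0.032) by edgeR's quasi-likelihood test with Benjamini-Hochberg adjustment, lower in BLA in 5 of 6 mice. The call did not hold without the Hipp-185, Hipp-191, Hipp-204 or Hipp-205 mouse (adjusted p = 0.0799 to 0.0972), and without both the Hipp-204 and the Hipp-205 mouse the difference was -1.07 (adjusted p = 0.223). Rspo2, a secreted R-spondin that marks excitatory neurons of the BLA within the amygdala, was at 19.9 to 44 (median 29.3) CPM in BLA and 18.2 to 48 (median 26.1) CPM in vHipp. The 2 ranges nearly coincided, and the difference was -0.01 (SE 0.28, adjusted p = 0.989). In other regions of the same condition Rspo2 averaged 41.4 ± 3.76 CPM (SD, n = 7) in prefrontal cortex and 0.683 ± 0.722 CPM (SD, n = 8) in the caudate putamen, and levels in these 2 regions are given below in the same form. Rspo2 thus did not separate the BLA libraries from the vHipp libraries, and these 2 given markers do not by themselves tell the regions apart in every library.

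**Figure D1:**
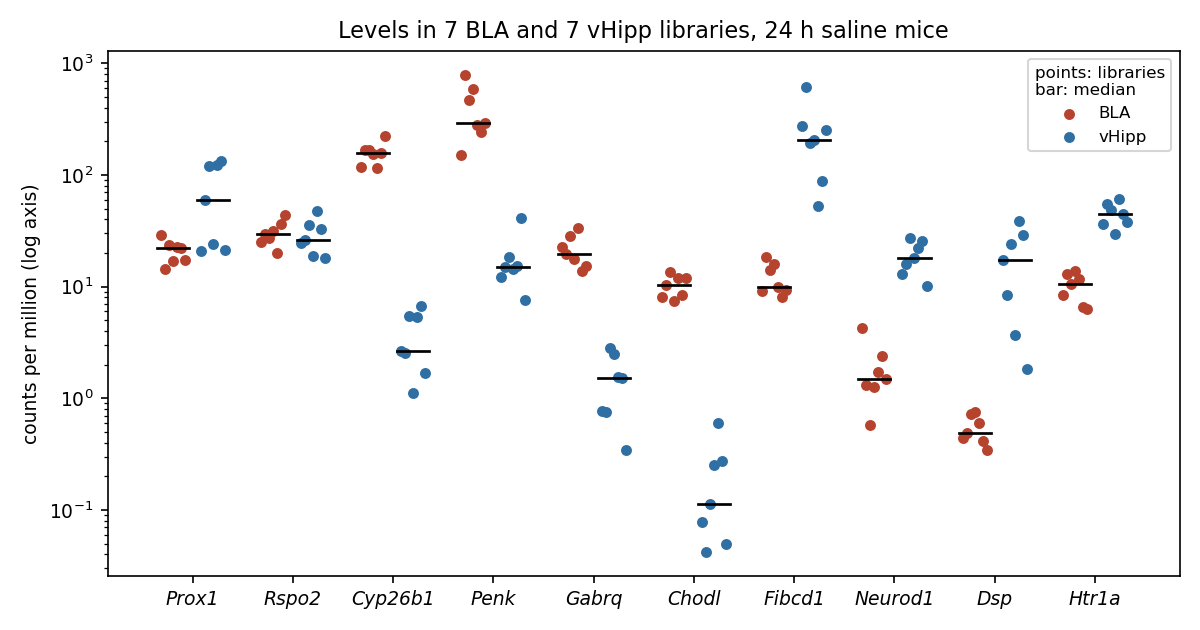
Level of 10 genes in each of the 7 BLA and 7 vHipp libraries, in CPM on a log axis, with the median as a bar. Prox1 and Rspo2 overlap between regions, whereas the other 8 genes, from Cyp26b1 to Htr1a, do not overlap.

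Of 16130 genes tested, 2307 were higher in BLA (14.3%) and 2446 lower (15.2%) at an adjusted p under 0.05. At least a 2-fold difference was called for 663 genes higher in BLA (4.11%) and 415 lower (2.57%). All 7 libraries of one region lay above all 7 of the other for 1001 genes higher in BLA (6.21%) and 1295 lower (8.03%). The counts changed with the mice fitted. Without the Hipp-185 mouse they were 1428 higher and 1417 lower, and without the Hipp-182 mouse 1554 and 1577. Without both the Hipp-182 and the Hipp-191 mouse, the 2 with choroid plexus and dopamine neuron transcripts, they were 872 and 858 of 16127 tested. Without the Hipp-204 and Hipp-205 mice they were 2714 and 2586. Without the pairing, over all 14 libraries, they were 3033 and 3441.

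The 15 genes furthest above vHipp in BLA included those for 2 peptide precursors, a peptide receptor, 2 GABA-A receptor subunits, 2 peptidases and a homeobox factor. Cyp26b1, which breaks down retinoic acid, stood at 114 to 224 (median 156) CPM in BLA and 1.12 to 6.73 (median 2.64) CPM in vHipp. Its lowest BLA library was above its highest vHipp library, and the log2 difference was 5.33 (SE 0.35, adjusted p = 0.00011), in the same direction in 6 of 6 mice. Calcr, the calcitonin receptor, was at 0.99 to 14.7 (median 4.48) CPM in BLA, and at most 1.27 CPM in vHipp, where the median was 0. One vHipp library, Hipp-201, reached into the BLA range, and the difference was 7.22 (SE 0.65, adjusted p = 0.000278). Chodl, a membrane lectin that marks a small class of somatostatin interneurons in cortex, was at 7.41 to 13.4 (median 10.4) CPM in BLA and 0.0423 to 0.604 (median 0.113) CPM in vHipp, with a difference of 5.82 (SE 0.42, adjusted p = 0.000131). No library of one region came near the other for this gene. Gal, which encodes the peptide galanin, was at 1.96 to 17.3 (median 4.72) CPM in BLA and 0 to 0.691 (median 0.137) CPM in vHipp, and differed by 5.14 (SE 0.27, adjusted p = 3.86e-05). Galanin thus varied widely among BLA libraries while staying under 1 CPM in every vHipp library. Penk, the enkephalin precursor, was at 150 to 792 (median 294) CPM in BLA and 7.62 to 40.9 (median 15) CPM in vHipp, with a difference of 4.34 (SE 0.43, adjusted p = 0.000502). Its highest BLA level, in BLA-185, came with the highest striatal marker sum of that region, of which Penk itself is a part. Pappa2, a protease that frees insulin-like growth factors from their binding proteins, was at 14.5 to 24.1 (median 21.5) CPM in BLA and 0.452 to 2.84 (median 0.841) CPM in vHipp, a difference of 4.45 (SE 0.26, adjusted p = 6.89e-05). Irs4, an insulin receptor substrate, was more variable, at 3.47 to 28.5 (median 9.51) CPM in BLA and 0.0495 to 4.91 (median 0.543) CPM in vHipp, and its ranges overlapped through Hipp-191 (log2 difference 4.22, SE 0.74, adjusted p = 0.00557).

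Beside the GABA-A receptor subunit genes Gabrq and Gabre, described below, these 15 included Six3, a homeobox gene of the ventral forebrain, at 8.59 to 35.9 (median 22.1) CPM in BLA and 0 to 2.29 (median 0.0989) CPM in vHipp (log2 difference 5.79, SE 0.92, adjusted p = 0.00362). Baiap3, a Munc13 relative that acts in dense-core vesicle release, was at 119 to 354 (median 314) CPM in BLA and 5.29 to 25.5 (median 20.4) CPM in vHipp, a difference of 4.05 (SE 0.38, adjusted p = 0.000429). Both genes were apart between regions. Ecel1, an endopeptidase of the neprilysin family, Arhgap36, an inhibitor of protein kinase A, and Ankfn1 and Ccdc42 differed by 4.08, 4.19, 4.63 and 4.12 on the log2 scale, each in 6 of 6 mice. Of the 15, 13 had regions that did not overlap, but the members were chosen for the size of this difference. Levels in the caudate putamen of the 24 h saline mice split the group. Six3, Penk and Ecel1 were also present in the caudate putamen, at 71.2 ± 5.68, 2002 ± 273 and 74.2 ± 3.55 CPM. Cyp26b1, Pappa2 and Gal were at 1.01 ± 0.362, 0.114 ± 0.0724 and 0.11 ± 0.0831 CPM there, well under their BLA levels. The share of striatal tissue in the BLA samples was not tested.

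The 15 genes furthest below vHipp in BLA included those for a desmosomal protein, a keratin, several secreted or matrix proteins, 3 receptors for transmitters or hormones and a bHLH transcription factor. Fibcd1, a membrane receptor of CA1 pyramidal neurons, was at 8.09 to 18.6 (median 9.95) CPM in BLA and 52.5 to 616 (median 204.5) CPM in vHipp (log2 difference -4.09, SE 0.38, adjusted p = 0.000419). Its 2 lowest vHipp libraries were Hipp-204 and Hipp-205, which still lay above every BLA library. Dsp, which encodes the desmosomal protein desmoplakin, was at 0.344 to 0.758 (median 0.49) CPM in BLA and 1.83 to 38.8 (median 17.2) CPM in vHipp (log2 difference -5.02, SE 0.39, adjusted p = 0.00018). Krt2, a keratin, was at 0.0816 to 0.743 (median 0.337) CPM in BLA and 4.6 to 18.2 (median 13.9) CPM in vHipp (log2 difference -4.97, SE 0.42, adjusted p = 0.000229). Both genes of cell-cell junctions and filaments were apart between regions. Neurod1, a bHLH transcription factor of glutamatergic neuron differentiation, was at 0.574 to 4.28 (median 1.48) CPM in BLA and 10 to 27.5 (median 17.9) CPM in vHipp (log2 difference -3.34, SE 0.44, adjusted p = 0.00163), again with no overlap. Adra1d, an alpha-1 adrenergic receptor, was at 2.37 to 4.53 (median 3.37) CPM in BLA and 20.6 to 69.7 (median 58.7) CPM in vHipp (log2 difference -3.71, SE 0.29, adjusted p = 0.000202). Npr3, the clearance receptor for natriuretic peptides, was at 1.87 to 4.43 (median 3.33) CPM in BLA and 23.8 to 62 (median 32.6) CPM in vHipp (log2 difference -3.60, SE 0.22, adjusted p = 7.73e-05). Receptors thus appeared on both sides of the comparison.

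A further 8 of these 15 differed by -4.05 (Olfml2b, an olfactomedin-domain matrix protein) to -3.15 (Smoc2, a calcium-binding matrix protein) on the log2 scale. They included Frzb, a secreted Wnt antagonist, at 2.0 to 5.55 (median 2.87) CPM in BLA and 27.5 to 72.3 (median 52.5) CPM in vHipp (log2 difference -3.85, SE 0.25, adjusted p = 0.000104), and Ccbe1, a matrix protein needed for lymphatic growth, at -3.75. The cytokine gene Il16 differed by -3.78, the serotonin receptor gene Htr5b by -3.53 and the lactase gene Lct by -3.53. Gmnc, a regulator of multiciliated cells, differed by -3.95 and was the only 1 of the 15 whose regions overlapped; its highest vHipp level, 17.7 CPM, was in Hipp-182. In other regions, Npr3, Smoc2 and Adra1d were also present in prefrontal cortex, at 27.9 ± 3.49, 26.7 ± 3.36 and 18.6 ± 4.27 CPM, whereas Dsp was at 0.197 ± 0.109 CPM.

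3 genes for subunits of the GABA-A receptor lie next to each other on the X chromosome (mm10), and their starts are shown because all 3 were higher in BLA: Gabre (epsilon, chrX:72255999-72274803, minus strand), Gabra3 (alpha 3, chrX:72432681-72656848, minus strand) and Gabrq (theta, chrX:72825178-72842602, plus strand). The start of Neurod1 is shown as that of a gene on the vHipp side. Each window runs from 250 bases before to 50 bases after the RefSeq start (GRCm38.p6), 5′ to 3′ on the gene's strand, with CG dinucleotides in capitals. The windows are chrX:72274672-72274971 (minus) for Gabre, chrX:72656870-72657169 (minus) for Gabra3, chrX:72824928-72825227 (plus) for Gabrq and chr2:79456587-79456886 (minus) for Neurod1.
Gabre: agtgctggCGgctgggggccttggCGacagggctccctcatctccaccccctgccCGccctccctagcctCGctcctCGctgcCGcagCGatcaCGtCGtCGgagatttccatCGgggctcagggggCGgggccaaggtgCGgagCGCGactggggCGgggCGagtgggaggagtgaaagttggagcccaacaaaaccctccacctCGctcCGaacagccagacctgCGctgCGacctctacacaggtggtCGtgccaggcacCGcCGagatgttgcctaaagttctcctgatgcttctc
Gabra3: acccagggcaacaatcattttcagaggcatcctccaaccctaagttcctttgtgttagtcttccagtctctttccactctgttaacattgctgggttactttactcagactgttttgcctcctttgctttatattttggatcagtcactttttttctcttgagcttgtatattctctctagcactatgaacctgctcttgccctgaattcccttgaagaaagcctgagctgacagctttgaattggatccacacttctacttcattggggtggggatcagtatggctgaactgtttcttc
Gabrq: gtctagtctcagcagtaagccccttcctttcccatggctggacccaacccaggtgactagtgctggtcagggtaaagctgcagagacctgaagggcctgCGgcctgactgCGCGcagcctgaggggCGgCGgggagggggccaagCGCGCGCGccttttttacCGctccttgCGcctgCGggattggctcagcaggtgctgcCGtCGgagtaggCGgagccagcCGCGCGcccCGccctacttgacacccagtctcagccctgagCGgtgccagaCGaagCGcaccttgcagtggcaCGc
Neurod1: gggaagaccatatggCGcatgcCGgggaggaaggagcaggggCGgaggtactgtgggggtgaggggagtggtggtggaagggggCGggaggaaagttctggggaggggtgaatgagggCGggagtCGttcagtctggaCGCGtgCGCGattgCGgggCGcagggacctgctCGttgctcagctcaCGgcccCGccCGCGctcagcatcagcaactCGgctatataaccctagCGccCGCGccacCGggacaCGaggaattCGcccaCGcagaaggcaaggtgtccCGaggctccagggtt
The Gabre, Gabrq and Neurod1 windows held 24, 23 and 26 CG dinucleotides, and the Gabra3 window held 0. Over the first window of each of 27025 genes the median was 7, 94.2% held at least 1, and 16.8% to 21.6% held at least as many as these 3. The letters TATAAA, searched on both strands and unable to overlap a CG, were found in 14.2% of all windows, and among these 4 in Gabra3 alone. Of the 15 genes highest in BLA, 13 had a window, with 2 to 29 CG dinucleotides, and of the 15 lowest, 10 had one, with 1 to 46. The groups' median numbers were 14 and 13.

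Gabrq was at 13.9 to 33.6 (median 19.7) CPM in BLA and 0.346 to 2.82 (median 1.51) CPM in vHipp, a difference of 4.21 (SE 0.29, adjusted p = 0.000104). Gabre was at 2.23 to 12.4 (median 8.77) CPM in BLA and 0.226 to 1.05 (median 0.345) CPM in vHipp (log2 difference 4.14, SE 0.42, adjusted p = 0.000455). These subunits make GABA-A receptors of unusual pharmacology, and both genes were apart between regions in every library. Gabra3, whose window lacked CG, was at 148 to 233 (median 189) CPM in BLA and 65.6 to 121.7 (median 104.8) CPM in vHipp, a smaller difference of 1.01 (SE 0.12, adjusted p = 0.000863). It was named after its values were seen, as the gene between the other two. Gabre and Gabrq averaged 0.323 ± 0.176 and 1.68 ± 0.356 CPM in prefrontal cortex, where Gabra3 averaged 201.3 ± 16.3 CPM. Of 16 GABA receptor genes tested, 5 were higher and 4 lower in BLA. Gabra5, whose alpha 5 subunit forms extrasynaptic receptors typical of the hippocampus, was lower, at 38.9 to 60 (median 49.8) CPM in BLA and 102 to 243 (median 187) CPM in vHipp (log2 difference -1.76, SE 0.25, adjusted p = 0.00217). Gabrb2 was lower by a smaller amount (log2 difference -0.56, SE 0.085, adjusted p = 0.00222). Neither gene's ranges overlapped. The 4 lower genes were 2 without the Hipp-182 and Hipp-191 mice.

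Marker lists of hippocampal subfields were mostly lower in BLA, with exceptions. Of 14 dentate granule cell genes tested, 8 were lower and 2 higher, with a median log2 difference of -1.25, beside 0.00 for all genes tested. Dsp and Lct were the lowest, and C1ql2, a synaptic C1q-like protein of mossy fibres, was at 1.67 to 8.71 (median 3.49) CPM in BLA and 9.25 to 84.9 (median 43.1) CPM in vHipp (log2 difference -3.12, SE 0.59, adjusted p = 0.00737). The 3 lowest vHipp libraries for C1ql2 were Hipp-182, Hipp-201 and Hipp-225, as for Prox1. Without the Hipp-204 and Hipp-205 mice C1ql2 was at -2.74 and did not pass (adjusted p = 0.0901). C1ql2 also averaged 62.1 ± 27.9 CPM (SD, n = 6) in the ventral tegmental area of this condition. It was at 71.7 CPM in Hipp-191, below Hipp-204 and Hipp-205 (84.9 and 80.4 CPM), and the part of midbrain tissue in this was not tested. Dock10 (log2 difference 1.16, SE 0.15, adjusted p = 0.00107) and Cdh15 (log2 difference 0.58, SE 0.15, adjusted p = 0.0223) were higher in BLA. The summed level of this list did not separate the regions: it ran from 320 to 425 CPM in BLA (median 377) and from 206 to 700 CPM in vHipp (median 386), with Hipp-182, Hipp-201 and Hipp-225 below every BLA library and Hipp-191, Hipp-204 and Hipp-205 above. The number lower fell from 8 to 5 without any 1 of the Hipp-185, Hipp-191, Hipp-204 and Hipp-205 mice, and to 3 without both of the last 2. Cdh15 did not pass the test without the Hipp-185, Hipp-204 or Hipp-225 mouse (adjusted p = 0.0513 to 0.0681). Of 9 genes of adult neurogenesis tested, 3 were higher and 1 lower in BLA (median -0.26). Sox11 (log2 difference 1.00, SE 0.3, adjusted p = 0.0396) and Tfap2c (log2 difference 3.19, SE 0.56, adjusted p = 0.00421), both transcription factors of progenitors and young neurons, were higher, and Neurod1 was lower. Sox11 did not pass without the Hipp-182, Hipp-185, Hipp-191 or Hipp-225 mouse (adjusted p = 0.0745 to 0.107). Without the Hipp-182 and Hipp-191 mice 1 gene was higher and 1 lower. In the mice of the other 5 conditions 4 of the 9 were higher and 5 lower (median -0.56). Over all genes tested there, 27.3% were higher and 26.5% lower.

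Of 15 genes of CA1 and subiculum, 8 were lower and 3 higher (median -1.41). Fibcd1 and the TGF-beta family ligand Lefty1 (log2 difference -2.53, SE 0.45, adjusted p = 0.00528) were the lowest. Wfs1, the wolframin gene often used to outline CA1, was higher in BLA, at 246 to 482 (median 401) CPM against 33.9 to 164 (median 49) CPM in vHipp (log2 difference 2.50, SE 0.35, adjusted p = 0.00219). Its levels of 160.5 and 164 CPM in Hipp-204 and Hipp-205 stood above the 33.9 to 50.7 CPM of the other 5. Nts, which encodes neurotensin, was at 25.7 to 48.3 (median 31.9) CPM in BLA and 0 to 11.6 (median 1.62) CPM in vHipp (log2 difference 3.60, SE 0.59, adjusted p = 0.00405). Both genes are listed for CA1 or subiculum and also occur in the amygdala, and neither had overlapping ranges. Of 15 genes of CA2, CA3 and mossy cells, 7 were lower and 2 higher (median -0.80). Grik4, a high-affinity kainate receptor subunit of CA3, was at 13.8 to 27.5 (median 17.8) CPM in BLA and 51.5 to 182.1 (median 102) CPM in vHipp (log2 difference -2.28, SE 0.27, adjusted p = 0.00102). Iyd, an iodotyrosine deiodinase, was at 0.0799 to 0.66 (median 0.204) CPM in BLA and 1.27 to 3.33 (median 2.18) CPM in vHipp (log2 difference -3.03, SE 0.41, adjusted p = 0.0013). Coch (1.69) and Cacng5 (1.80) were higher in BLA. The summed CA2, CA3 and mossy cell level was 692 to 873 CPM in BLA and 1080 to 2440 CPM in vHipp, with Hipp-204 and Hipp-205 lowest among vHipp. The number of its genes lower was 4 without the Hipp-182 and Hipp-191 mice.

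**Figure D2:**
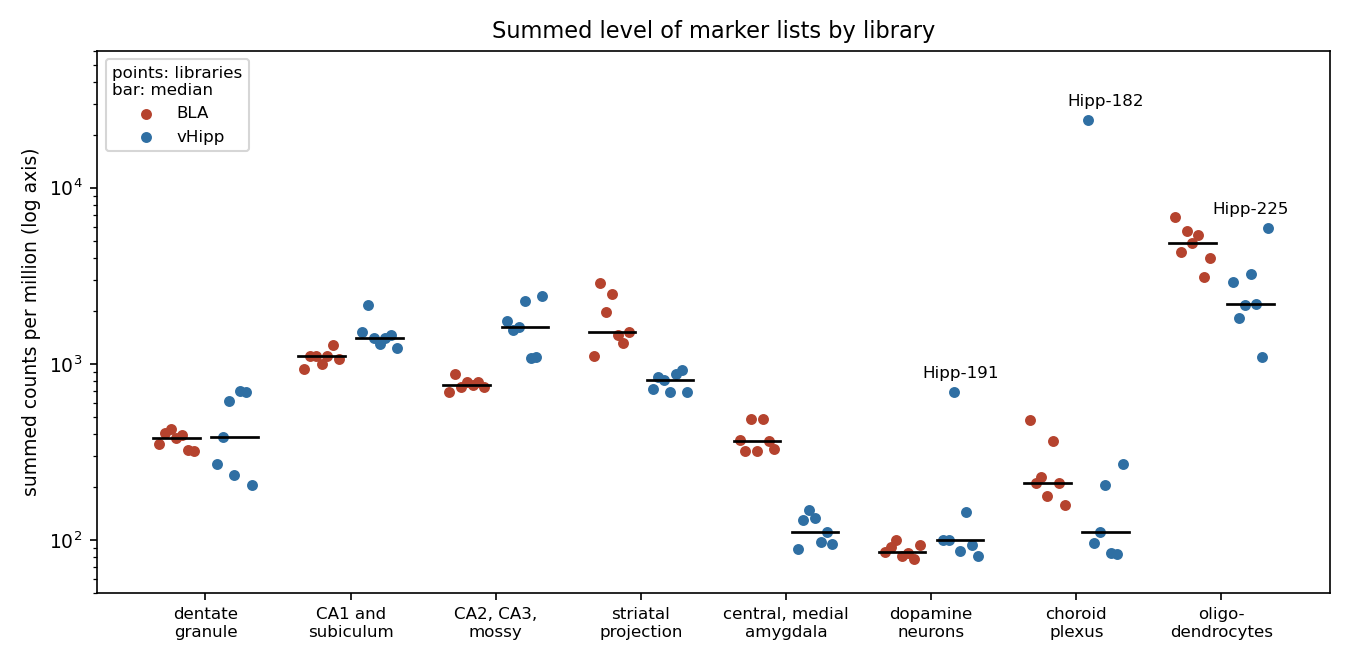
Summed CPM of 8 marker lists in each library, on a log axis, with the median as a bar. The choroid plexus sum of Hipp-182 (24200) and the dopamine neuron sum of Hipp-191 (688) stand apart, and the oligodendrocyte sum of Hipp-225 (5890) is the highest of its region.

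Transcription factor lists of cortex and amygdala had medians of opposite sign. Of 27 cortical and hippocampal transcription factors tested, 18 were lower in BLA and 2 higher (median -0.82). Neurod1 was among the lower ones, and Zbtb20, a zinc finger gene of hippocampal identity, was at 72.6 to 110 (median 86.5) CPM in BLA and 180 to 463 (median 279) CPM in vHipp (log2 difference -1.41, SE 0.19, adjusted p = 0.00178). Cux1 (log2 difference 0.79, SE 0.13, adjusted p = 0.00352) and Cux2 (log2 difference 0.76, SE 0.22, adjusted p = 0.0342), homeobox genes of upper cortical layers, were higher, although Cux2 did not pass without the Hipp-182, Hipp-185, Hipp-191 or Hipp-225 mouse (adjusted p = 0.0824 to 0.1) and neither was called without the Hipp-182 and Hipp-191 mice. Of 19 factors listed as enriched in the amygdala, 13 were higher and 1 lower (median 1.36). Isl1, a LIM homeobox gene of GABAergic and cholinergic lineages, was at 2.12 to 7.61 (median 4.63) CPM in BLA and at most 0.0915 CPM in vHipp (log2 difference 6.77, SE 0.51, adjusted p = 0.00011). Foxp2, a forkhead gene of intercalated and striatal neurons, was at 9.82 to 35.6 (median 22.1) CPM in BLA and 0.346 to 2.89 (median 1.73) CPM in vHipp (log2 difference 3.97, SE 0.53, adjusted p = 0.00175). Six3, Isl1 and Foxp2 averaged 71.2 ± 5.68, 19.9 ± 2.27 and 94.3 ± 11.4 CPM in the caudate putamen. Lhx9 went the other way, at 1.95 to 3.45 (median 2.56) CPM in BLA and 10.8 to 36 (median 23.8) CPM in vHipp (log2 difference -3.02, SE 0.26, adjusted p = 0.000263). The counts of 13 and 1 were the same without the Hipp-182 mouse and without both it and the Hipp-191 mouse.

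Lists for the excitatory cells of the BLA and for the inhibitory nuclei around it both held more genes higher than lower. Of 15 genes listed for BLA excitatory neurons, 6 were higher and 3 lower (median 0.19). Cyp26b1 and Otof led the higher ones. Otof, the calcium sensor otoferlin, was at 113.1 to 250 (median 149) CPM in BLA and 3.66 to 46 (median 13.4) CPM in vHipp (log2 difference 3.51, SE 0.46, adjusted p = 0.00165). Sema3e (log2 difference -1.46, SE 0.28, adjusted p = 0.00807), a repulsive guidance ligand, and Fezf2 (log2 difference -0.87, SE 0.2, adjusted p = 0.0152), a factor of deep-layer projection neurons, were lower, and of the 3 lower genes 1 was called without the Hipp-182 and Hipp-191 mice. Of 13 genes of the central and medial amygdala tested, 11 were higher and none lower (median 2.65). Isl1 and Gal led, and Prkcd, a kinase that marks a class of central amygdala neurons, was at 50.5 to 112 (median 77.8) CPM in BLA and 9.89 to 17.2 (median 12.7) CPM in vHipp (log2 difference 2.65, SE 0.2, adjusted p = 0.000181). Of 19 genes of striatal projection neurons tested, 13 were higher and 1 lower (median 1.52). Beside Penk, the dynorphin precursor Pdyn was at 38.1 to 100 (median 86.4) CPM in BLA and 0.594 to 12.2 (median 4.02) CPM in vHipp (log2 difference 3.80, SE 0.42, adjusted p = 0.000831). Lrrc10b was the exception, lower in BLA (log2 difference -1.52, SE 0.39, adjusted p = 0.024). Lrrc10b did not pass the test without the Hipp-182, Hipp-191 or Hipp-225 mouse (adjusted p = 0.0545 to 0.0761). In the mice of the other 5 conditions 17 of 19 striatal genes were called higher and 0 lower, so Lrrc10b was not called lower there. Over all genes tested in those mice, 27.3% were higher and 26.5% lower. The striatal sum ran from 1110 CPM in BLA-182 to 2870 CPM in BLA-185 and from 687 to 916 CPM in vHipp. Without the Hipp-182 and Hipp-191 mice the numbers called higher were 7 of the 19 striatal genes and 9 of the 13 central and medial amygdala genes.

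Of 12 genes of thalamus and hypothalamus tested, 4 were higher in BLA and none lower. Avp, the vasopressin gene, was at 1.02 to 8.01 (median 3.3) CPM in BLA and 0 to 0.465 (median 0.226) CPM in vHipp (log2 difference 3.70, SE 0.53, adjusted p = 0.00212), although 14.8% of its 50-base stretches occur in other transcripts as well. The largest member, Gal, is named above. Of 8 dopamine neuron genes tested, Ddc, the aromatic amino acid decarboxylase, was higher in BLA (log2 difference 1.43, SE 0.42, adjusted p = 0.0369) in 5 of 6 mice, its highest vHipp level of 59.4 CPM being in Hipp-191. Nr4a2, an orphan nuclear receptor, was lower (log2 difference -1.18, SE 0.25, adjusted p = 0.0115) in 5 of 6. Ddc did not pass without the Hipp-182, Hipp-185, Hipp-204, Hipp-205 or Hipp-225 mouse (adjusted p = 0.0865 to 0.0956).

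**Figure D3:**
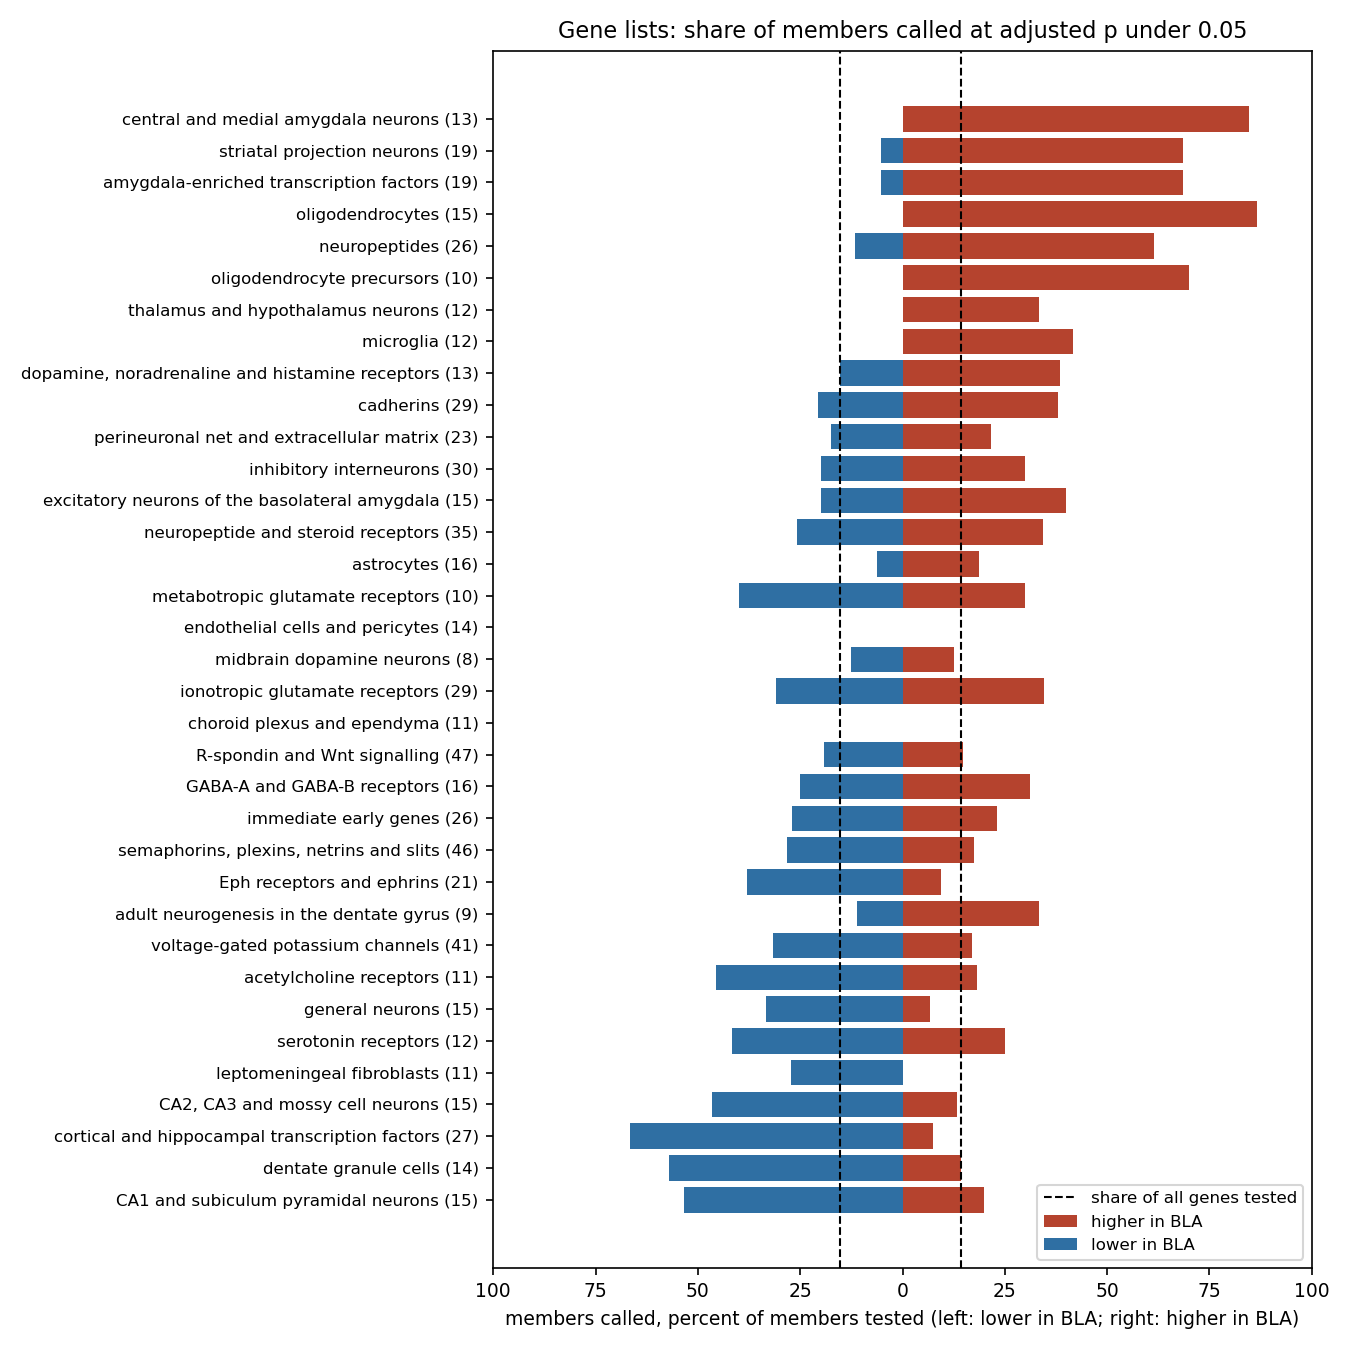
Share of each list's tested members (number in parentheses) called higher in BLA, to the right, or lower, to the left, at an adjusted p under 0.05, ordered by the list's median difference. Dashed lines mark the share of all genes tested, 14.3% higher and 15.2% lower.

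Neuropeptide genes were higher in BLA for 16 of 26 members tested and lower for 3 (median 0.85). Tac2, the neurokinin B precursor, was at 24.3 to 68.1 (median 38.8) CPM in BLA and 3.18 to 6.82 (median 5.92) CPM in vHipp (log2 difference 3.06, SE 0.2, adjusted p = 8.74e-05). Crh, corticotropin-releasing hormone, was at 4.13 to 11.1 (median 6.88) CPM in BLA and 1.18 to 2.13 (median 1.57) CPM in vHipp (log2 difference 2.03, SE 0.26, adjusted p = 0.00108). Both were apart between regions, as were Gal, Penk, Pdyn and Nts. The interneuron peptides Sst (log2 difference 0.46, SE 0.11, adjusted p = 0.0139) and Npy (log2 difference 0.66, SE 0.1, adjusted p = 0.00255) differed by less. On the other side, Grp, gastrin-releasing peptide, was at 3.84 to 16.7 (median 8.02) CPM in BLA and 8.95 to 49.1 (median 31.4) CPM in vHipp (log2 difference -1.60, SE 0.46, adjusted p = 0.0342), and Cort, cortistatin, was lower by a smaller amount (log2 difference -0.92, SE 0.21, adjusted p = 0.0126). The Grp difference did not pass without the Hipp-182, Hipp-185, Hipp-191, Hipp-204 or Hipp-205 mouse (adjusted p = 0.0507 to 0.0943). Bdnf, the neurotrophin gene counted in the same list, was at 14.7 to 27.7 (median 19.8) CPM in BLA and 29.7 to 55.2 (median 37.4) CPM in vHipp (log2 difference -0.79, SE 0.18, adjusted p = 0.0136). The list gave 11 higher and 1 lower without the Hipp-182 and Hipp-191 mice.

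Of 35 peptide and steroid receptor genes tested, 12 were higher and 9 lower. Oprk1, the kappa opioid receptor through which dynorphin acts, was at 24.6 to 46.3 (median 34.9) CPM in BLA and 1.38 to 5.07 (median 3.36) CPM in vHipp (log2 difference 3.56, SE 0.24, adjusted p = 0.000104). Tacr1, the substance P receptor, was at 19.1 to 31.1 (median 25.1) CPM in BLA and 2.44 to 5.28 (median 3.48) CPM in vHipp (log2 difference 2.93, SE 0.12, adjusted p = 9.22e-06). For both receptors the lowest BLA library exceeded the highest vHipp library. Nr3c2, the mineralocorticoid receptor, was at 38.3 to 48.9 (median 42.5) CPM in BLA and 94.7 to 249 (median 172) CPM in vHipp (log2 difference -1.82, SE 0.19, adjusted p = 0.000543). The somatostatin receptor gene Sstr4 was at 6.04 to 8.42 (median 6.35) CPM in BLA and 12.4 to 29.7 (median 22.6) CPM in vHipp (log2 difference -1.59, SE 0.24, adjusted p = 0.00291). These 2 vHipp-side receptors were also apart between regions. The list's counts were 5 higher and 6 lower without the Hipp-182 and Hipp-191 mice.

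Ionotropic glutamate receptor genes and their auxiliary subunits were divided, with 10 of 29 higher and 9 lower. Cacng4, which encodes an AMPA receptor auxiliary subunit, was at 52.1 to 75.1 (median 72.1) CPM in BLA and 17.4 to 28.7 (median 21.4) CPM in vHipp (log2 difference 1.59, SE 0.1, adjusted p = 6.89e-05), and the related Cacng5 was higher in 5 of 6 mice (log2 difference 1.80, SE 0.35, adjusted p = 0.0084). The ranges were apart for Cacng4 and overlapped for Cacng5. Shisa6, another AMPA receptor auxiliary subunit, was at 33.5 to 54.3 (median 44.4) CPM in BLA and 95.4 to 431 (median 230) CPM in vHipp (log2 difference -2.17, SE 0.31, adjusted p = 0.00231). The NMDA receptor subunit gene Grin2a was at 14.5 to 30.9 (median 19.2) CPM in BLA and 34.1 to 110.7 (median 67.9) CPM in vHipp (log2 difference -1.53, SE 0.21, adjusted p = 0.00202). Kainate subunits split as well, with Grik4 lower and Grik3 higher in BLA (log2 difference 1.39, SE 0.19, adjusted p = 0.00164). The counts were 4 higher and 6 lower without the Hipp-182 and Hipp-191 mice. Of 10 metabotropic receptor genes and partners, 3 were higher and 4 lower, but 0 and 3 without the Hipp-182 and Hipp-191 mice. Grm8, a presynaptic group III receptor, was at 22 to 27.6 (median 25.1) CPM in BLA and 0.594 to 12.9 (median 5.43) CPM in vHipp (log2 difference 2.15, SE 0.49, adjusted p = 0.0151), and the related Grm4 was higher too (log2 difference 1.33, SE 0.31, adjusted p = 0.0158), though not without the Hipp-191 mouse (adjusted p = 0.0535). Homer3, a scaffold of group I receptors, was lower (log2 difference -2.71, SE 0.27, adjusted p = 0.000505). Homer3 shares 25.4% of its exonic length with another gene's exons, and whether counting used strand is not given in the sources used here.

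Serotonin receptor genes gave 3 higher and 5 lower of 12 tested. Htr1d, a Gi-coupled receptor, was at 3.32 to 7.79 (median 4.43) CPM in BLA and 0.173 to 0.592 (median 0.297) CPM in vHipp (log2 difference 3.83, SE 0.23, adjusted p = 6.32e-05), and Htr1f was also higher (log2 difference 2.55, SE 0.2, adjusted p = 0.000138). Htr1a, of the same receptor class, was at 6.25 to 13.9 (median 10.6) CPM in BLA and 29.3 to 60.8 (median 44.5) CPM in vHipp (log2 difference -2.34, SE 0.1, adjusted p = 1.29e-05). Members of the 5-HT1 class thus differed in opposite directions between these regions, with no overlap for any of the 3. The 5 lower genes were 3 without the Hipp-182 and Hipp-191 mice. Of 13 dopamine, noradrenaline and histamine receptor genes, 5 were higher and 2 lower. Drd1 was at 16.7 to 44.9 (median 24.7) CPM in BLA and 1.24 to 8.33 (median 2.33) CPM in vHipp (log2 difference 2.86, SE 0.45, adjusted p = 0.00352), and Drd2 at 2.4 to 24.8 (median 5.85) and 0.643 to 9.26 (median 1.2) CPM (log2 difference 1.82, SE 0.56, adjusted p = 0.0423). The highest Drd2 level in vHipp was in Hipp-191 and that in BLA in BLA-185, and Drd2 did not pass without the Hipp-182, Hipp-204, Hipp-205 or Hipp-225 mouse (adjusted p = 0.0587 to 0.1). Drd5, the other D1-class receptor, was at 0.599 to 1.68 (median 0.984) CPM in BLA and 3.34 to 8.8 (median 6.43) CPM in vHipp (log2 difference -2.46, SE 0.26, adjusted p = 0.00042); 48.6% of its exonic length overlaps another gene's exons. Without the Hipp-182 and Hipp-191 mice none of the 5 was called higher. That fit called 872 genes higher over all genes tested, against 2307 with all 6 mice. Of 11 acetylcholine receptor genes, 2 were higher and 5 lower. The nicotinic subunit gene Chrna2 (log2 difference 1.87, SE 0.36, adjusted p = 0.00701) and the muscarinic Chrm2 (log2 difference 1.02, SE 0.15, adjusted p = 0.00203) were higher. Chrm3 (log2 difference -1.73, SE 0.13, adjusted p = 0.000104) and Chrna5 (log2 difference -2.25, SE 0.3, adjusted p = 0.00125) were lower, and all 4 had regions apart.

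**Figure D4:**
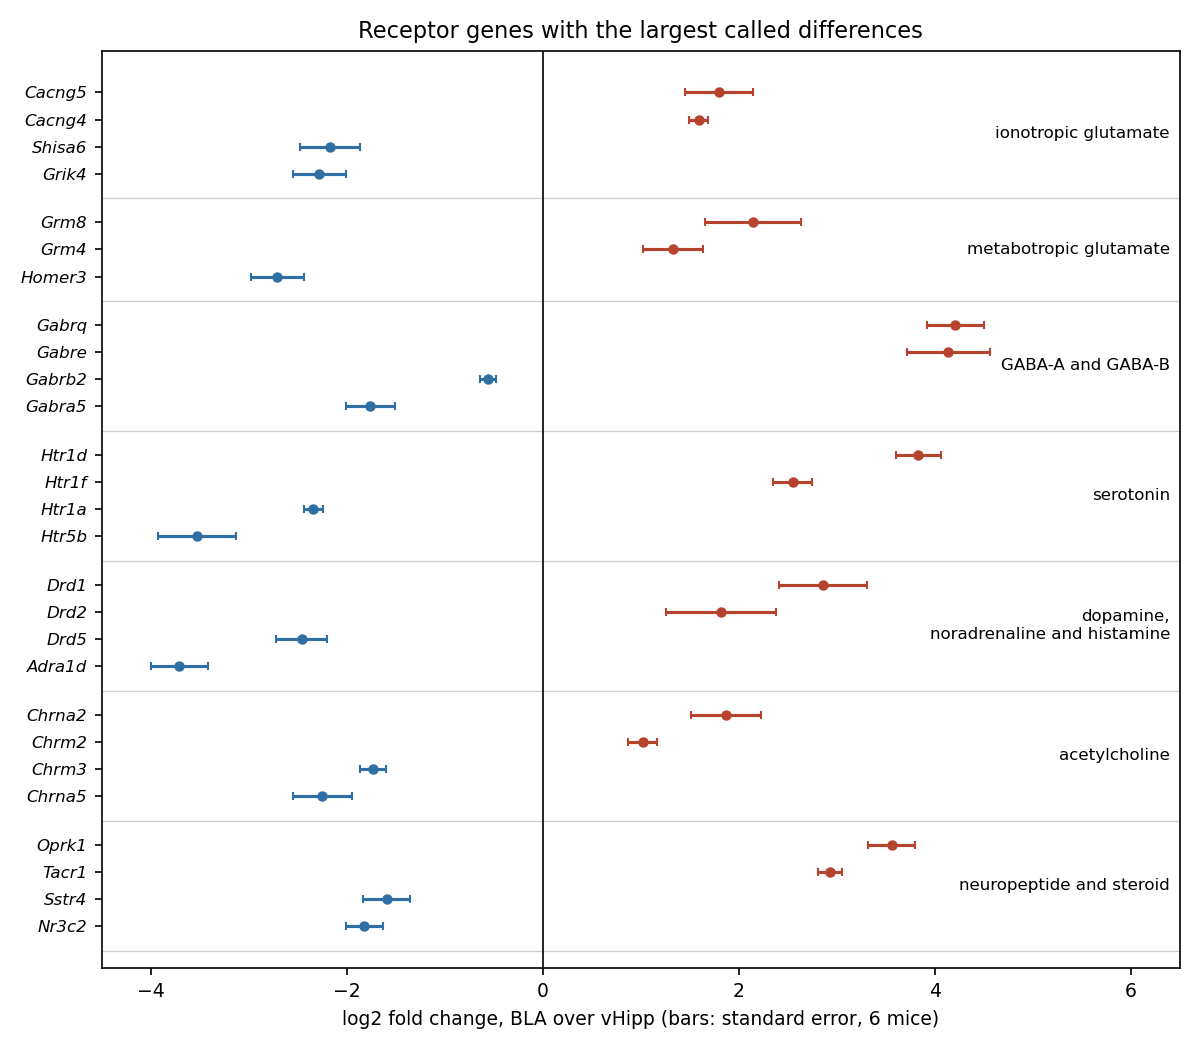
Log2 fold change of BLA over vHipp, with its standard error from the fit of 6 mice. Shown are receptor genes with the largest called differences, up to 2 in each direction of 7 receptor lists. Genes lie on both sides of 0 because they were chosen in each direction.

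Interneuron genes were higher for 9 and lower for 6 of 30 tested. Dlx6 (log2 difference 2.13, SE 0.13, adjusted p = 6.32e-05) and Dlx5 (log2 difference 1.42, SE 0.14, adjusted p = 0.00031), homeobox genes of forebrain GABAergic lineages, were higher, and Kit (log2 difference -2.18, SE 0.23, adjusted p = 0.000583), a receptor tyrosine kinase, and Reln (log2 difference -1.68, SE 0.22, adjusted p = 0.00143), the secreted protein reelin, were lower. Among 15 general neuronal genes, Map2, a dendritic microtubule protein, was the one higher (log2 difference 0.47, SE 0.08, adjusted p = 0.00391), and 5 were lower. Slc17a7, the vesicular glutamate transporter of cortical and hippocampal pyramidal cells, was at 712 to 1363 (median 786) CPM in BLA and 1248 to 2075 (median 1631) CPM in vHipp (log2 difference -0.78, SE 0.15, adjusted p = 0.00687). Its highest BLA level came in BLA-205, the library with the smallest total. The synaptic vesicle gene Syt1 was lower as well (log2 difference -0.65, SE 0.13, adjusted p = 0.00822). Without the Hipp-182 and Hipp-191 mice none of the 5 was called lower. That fit called 858 genes lower over all genes tested, against 2446 with all 6 mice.

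Wnt pathway genes were near the background in the 24 h saline mice, with 7 of 47 higher and 9 lower, and 5 each without the Hipp-191 mouse. Its secreted modulators nevertheless held large differences: Rspo1 (log2 difference 2.17, SE 0.2, adjusted p = 0.000265) and Dkkl1 (log2 difference 2.54, SE 0.45, adjusted p = 0.00555) were higher in BLA, and Rspo3 was at 1.43 to 3.29 (median 1.9) CPM in BLA and 8.66 to 22.6 (median 14) CPM in vHipp (log2 difference -2.73, SE 0.27, adjusted p = 0.000447). Rspo1 and Rspo3, relatives of Rspo2, thus lay on opposite sides, each with regions apart. In the mice of the other 5 conditions 12 of 47 Wnt pathway genes were higher and 23 lower. Over all genes tested there, 27.3% were higher and 26.5% lower. Cadherins gave 11 higher and 6 lower of 29, with Cdh4 (log2 difference 2.02, SE 0.16, adjusted p = 0.0002) and Pcdh18 (log2 difference 2.0, SE 0.13, adjusted p = 6.89e-05) the highest and Cdh12 (log2 difference -1.96, SE 0.16, adjusted p = 0.000157) and Pcdh20 (log2 difference -1.91, SE 0.17, adjusted p = 0.00031) the lowest. Those 4 adhesion genes all had regions apart. Of 21 Eph receptors and ephrins, 2 were higher and 8 lower. The 8 became 5 with any 1 mouse but that of Hipp-225 left out, and the 2 became 1 to 4. Epha5 (log2 difference 0.85, SE 0.14, adjusted p = 0.00416) and Efna5 (log2 difference 0.46, SE 0.15, adjusted p = 0.0451) were the higher ones. The receptor gene Epha4 was at 74.5 to 123 (median 90.5) CPM in BLA and 193.5 to 481 (median 362) CPM in vHipp (log2 difference -1.74, SE 0.26, adjusted p = 0.00282), and the ligand gene Efna4 was lower as well (log2 difference -1.29, SE 0.33, adjusted p = 0.0203). Efna5 did not pass the test without the Hipp-182, Hipp-185, Hipp-191, Hipp-204 or Hipp-225 mouse (adjusted p = 0.0817 to 0.114), nor did Efna4 without the Hipp-204 mouse (adjusted p = 0.0519).

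Of 46 semaphorin, plexin, netrin and slit genes, 8 were higher and 13 lower, beside 14.3% and 15.2% of all genes tested. The higher ones numbered 4 without the Hipp-182 mouse and 5 without that of Hipp-185 or Hipp-191, and without the Hipp-182 and Hipp-191 mice 3 were higher and 7 lower. Sema3a, a repulsive axon guidance ligand, was at 24.7 to 33.7 (median 29.1) CPM in BLA and 0.445 to 11.7 (median 1.56) CPM in vHipp (log2 difference 3.67, SE 0.58, adjusted p = 0.00351). Its receptor gene Nrp1 was at 25.1 to 39.9 (median 29) CPM in BLA and 89.3 to 231 (median 156) CPM in vHipp (log2 difference -2.20, SE 0.14, adjusted p = 7.73e-05). The ligand was thus higher and the receptor lower in BLA, both apart between regions. Slit1 was lower (log2 difference -1.48, SE 0.14, adjusted p = 0.000279) and Sema4g higher (log2 difference 1.25, SE 0.11, adjusted p = 0.000193). Of 41 voltage-gated potassium channel genes, 7 were higher and 13 lower, and the 7 became 4 without the Hipp-182 or the Hipp-191 mouse and 2 without both. Kcna5 (log2 difference 1.87, SE 0.39, adjusted p = 0.0103) and Kcnh4 (log2 difference 1.55, SE 0.48, adjusted p = 0.0438) were higher, while the modulatory subunit genes Kcng4 (log2 difference -2.34, SE 0.3, adjusted p = 0.00101) and Kcng2 (log2 difference -1.93, SE 0.19, adjusted p = 0.000365) were lower. Kcnh4 did not pass without the Hipp-182, Hipp-185, Hipp-191 or Hipp-225 mouse (adjusted p = 0.103 to 0.119). Matrix genes gave 5 higher and 4 lower of 23, with the tenascin C gene Tnc (log2 difference 1.04, SE 0.19, adjusted p = 0.00495) and the link protein gene Hapln2 (log2 difference 1.00, SE 0.28, adjusted p = 0.0305) higher and the thrombospondin gene Thbs2 (log2 difference -1.07, SE 0.19, adjusted p = 0.00465) lower. Hapln2 did not pass without the Hipp-182, Hipp-185, Hipp-191, Hipp-204 or Hipp-205 mouse (adjusted p = 0.0699 to 0.093). The 5 higher matrix genes were 2 without the Hipp-182, Hipp-191 or Hipp-204 mouse, and the 4 lower were 2 without that of Hipp-185 or Hipp-204.

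Oligodendrocyte genes were higher in BLA for 13 of 15 tested and lower for none (median 0.94), but this count changed with single mice left out. Mobp, a myelin protein gene, was at 417 to 932 (median 645) CPM in BLA and 121.8 to 736 (median 252) CPM in vHipp, and higher in BLA in 5 of 6 mice (log2 difference 1.28, SE 0.31, adjusted p = 0.0184). The order was reversed in BLA-225 and Hipp-225, at 487 and 736 CPM. Without the Hipp-182, Hipp-185 or Hipp-191 mouse, 2, 1 and 1 of the 15 were called, without the Hipp-204 or Hipp-205 mouse, 5 each, and without the Hipp-225 mouse, 14. The list's median lay between 0.82 and 1.24 in these 6 fits. Over all genes tested they called 2845 to 4969 genes in both directions together, against 4753 with all 6 mice. Without the Hipp-182 and Hipp-191 mice, and without the Hipp-204 and Hipp-205 mice, 0 of the 15 were called (medians 0.79 and 0.8). Those 2 fits called 872 and 2714 genes higher over all genes tested. In the mice of the other 5 conditions all 15 were called higher. Over all genes tested, 27.3% were called higher and 26.5% lower there, against 14.3% and 15.2% in the 24 h saline mice. The other lists' counts in those mice, given below, are to be read beside these shares. Oligodendrocyte precursor genes gave 7 higher of 10, led by Enpp6 (log2 difference 1.02, SE 0.24, adjusted p = 0.0152) and Sox10 (log2 difference 0.74, SE 0.14, adjusted p = 0.00623), and 2 without the Hipp-182 and Hipp-191 mice. Microglial genes gave 5 higher of 12, among them the fractalkine receptor gene Cx3cr1 (log2 difference 0.54, SE 0.11, adjusted p = 0.00854) and the purinergic receptor gene P2ry12 (log2 difference 0.50, SE 0.12, adjusted p = 0.0157). This number was 2 without the Hipp-185 mouse and 1 without the Hipp-182 and Hipp-191 mice, and 11 of 12 in the mice of the other 5 conditions. Over all genes tested, 1428 and 872 were higher in the first 2 of these fits, against 2307 with all 6 mice. Astrocyte genes gave 3 higher and 1 lower of 16. Gfap, the astrocyte intermediate filament, was at 44.5 to 253 (median 83) CPM in BLA and 232 to 312 (median 257) CPM in vHipp (log2 difference -1.61, SE 0.31, adjusted p = 0.00838), while Agt (log2 difference 0.58, SE 0.19, adjusted p = 0.0488) and S100b (log2 difference 0.40, SE 0.1, adjusted p = 0.0203) were higher in BLA. The 3 higher were 0 or 1 with any 1 mouse but that of Hipp-205 left out, and in the other 5 conditions the balance was opposite, with 1 higher and 12 lower of 16. Agt, at -0.16, did not pass there (adjusted p = 0.348). None of 14 endothelial and pericyte genes, 11 choroid plexus genes or 5 blood genes was called with all 6 mice. Without the Hipp-182 mouse, 2 of 10 choroid plexus genes were higher, and in the other 5 conditions 4 of 9 were higher. The unpaired fit without Hipp-182 gave 6 higher and 1 lower of 10, and with it 4 lower of 11. Of the blood genes, 4 of 5 were lower without the Hipp-225 mouse, and in the other 5 conditions 5 of the 14 endothelial and pericyte genes were lower. Of 11 leptomeningeal genes, 3 were lower in BLA, among them the matrix proteoglycans Dcn (log2 difference -2.39, SE 0.56, adjusted p = 0.0164) and Lum (log2 difference -1.46, SE 0.35, adjusted p = 0.0162), with the highest list sum, 681 CPM, in Hipp-182. Without the Hipp-191 mouse 1 of the 11 was lower. Without the Hipp-204 and Hipp-205 mice, neither Dcn (-2.81, adjusted p = 0.0768) nor the astrocyte gene Gfap (-1.69, adjusted p = 0.0571) passed. Several of these glial calls were lost with 1 mouse left out: Mobp without the Hipp-185 or Hipp-191 mouse (adjusted p = 0.0557 to 0.0611), Enpp6 without the Hipp-182 or Hipp-185 mouse (adjusted p = 0.0506 to 0.0537), P2ry12 without the Hipp-185 mouse (adjusted p = 0.0533), Agt without the Hipp-182, Hipp-185, Hipp-191, Hipp-204 or Hipp-225 mouse (adjusted p = 0.0768 to 0.134), S100b without the Hipp-225 mouse (adjusted p = 0.0607) and Lum without the Hipp-191 mouse (adjusted p = 0.0504).

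Immediate early genes, which neurons induce on activity, gave 6 higher and 7 lower of 26. Npas4 was at 11.7 to 22.1 (median 16.7) CPM in BLA and 2.88 to 8.28 (median 5.98) CPM in vHipp (log2 difference 1.47, SE 0.19, adjusted p = 0.00126), and Nptx2 was also higher (log2 difference 0.95, SE 0.14, adjusted p = 0.00245). Jun was at 27.8 to 57.8 (median 37.1) CPM in BLA and 95.8 to 135 (median 111.3) CPM in vHipp (log2 difference -1.50, SE 0.15, adjusted p = 0.000455), and Ptgs2, which encodes cyclooxygenase 2, was lower too (log2 difference -1.77, SE 0.29, adjusted p = 0.00446). Npas4, Jun and Ptgs2 had regions apart, with Npas4 on one side and the other two on the opposite side. The 7 lower genes were 3 without the Hipp-182 and Hipp-191 mice.

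In the 26 mice of the other 5 conditions, none of which entered the comparison above, 16052 genes were tested, and 4387 were higher (27.3%) and 4254 lower (26.5%) in BLA. Of the 2307 genes higher in the 24 h saline mice, 1810 (78.5%) were called higher in these mice and 10 lower, and of the 2446 lower, 1864 (76.2%) were called lower and 22 higher. The shared genes were 41.3% and 43.8% of the calls in the other mice. Of the genes at least 2-fold apart in the 24 h saline mice, 604 of 663 (91.1%) and 404 of 415 (97.3%) were called in the same direction. All 30 genes of the first 2 groups, 15 in each direction, were called in the other mice. When each of the 5 conditions was fitted alone, 14 of the 15 BLA genes and all 15 vHipp genes were called in every condition, Gal having been tested in 4 of them. Cyp26b1 ranged from 4.52 to 5.55 over the 5 conditions on the log2 scale and Neurod1 from -4.03 to -3.05, each on 1 side of 0 throughout. Prox1 (log2 difference -2.35, SE 0.26, adjusted p = 5.51e-09) was lower in BLA over all the other mice, but fitted alone it did not pass after saline self-administration and a cocaine injection (adjusted p = 0.0704) or after cocaine self-administration and a saline injection (adjusted p = 0.105). Rspo2 (log2 difference -0.00, SE 0.11, adjusted p = 0.994) did not pass the test there either. Over 32 vHipp libraries of the other conditions Prox1 ran from 9.79 to 218 CPM (median 87.5), and over the BLA libraries there from 9.4 to 24.9 CPM, so the ranges overlapped.

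**Figure D5:**
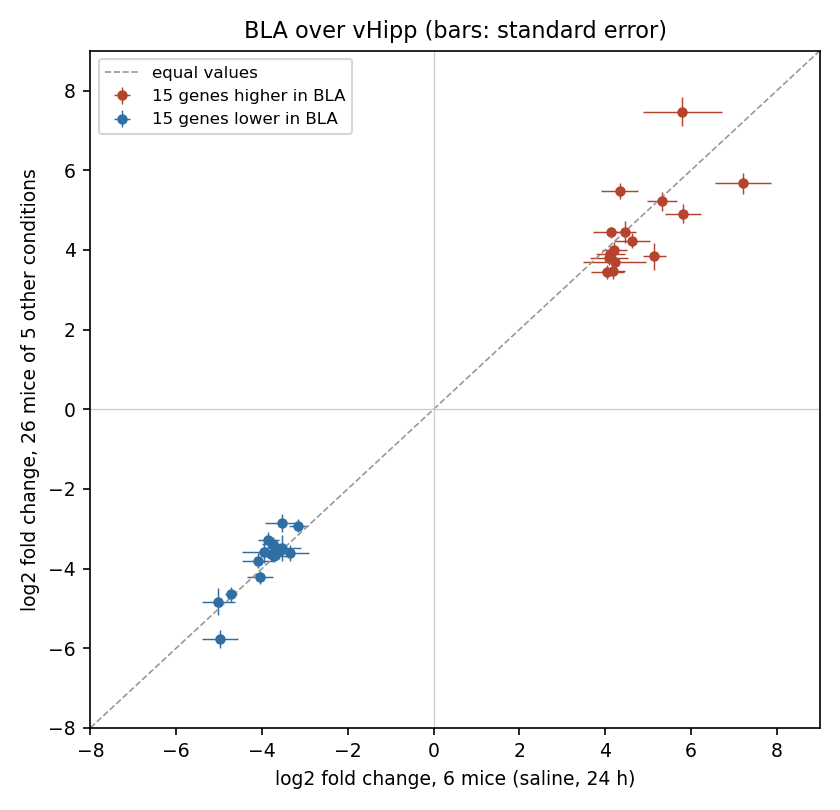
Log2 fold change of BLA over vHipp in 6 mice (saline, 24 h), across, and in the 26 mice of 5 other conditions, upward, with standard errors, for the 15 genes highest and the 15 lowest in BLA. All 30 keep their side of 0, and all were called in both sets of mice.

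A test of whether the regional difference itself differed between the 24 h saline mice and the mice of the other 5 conditions, of which 11 had also self-administered saline, called 2 of 16121 genes (0.0124%), with 3143 at an unadjusted p under 0.05. Vgll3, a transcriptional cofactor, was at 0.574 to 4.47 (median 0.857) CPM in BLA and 1.98 to 21.7 (median 5.72) CPM in vHipp of the 24 h saline mice. The regional difference was -1.67 there and -4.88 in the others, an interaction of 3.24 (SE 0.56, adjusted p = 0.0296). In vHipp of the other conditions Vgll3 ran from 2.35 to 69.1 CPM (median 16.3). Stag3, a meiotic cohesin subunit, differed by 0.93 in the 24 h saline mice and -0.11 in the others, an interaction of 1.04 (SE 0.19, adjusted p = 0.043). The number of genes called moved with the method: DESeq2 called 351, limma voom 1 and the quasi-likelihood test without a filter on low counts 0.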

How the data were processed

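RNA was taken from dissected BLA and vHipp. Per the labels' protocols, it was extracted with an RNeasy micro kit and Trizol and treated with DNase, and libraries were made with a ScriptSeq kit after ribosomal depletion, although the molecule is labelled polyA RNA. The deposited values are raw counts per Ensembl gene, and the submitters' processing notes name HTSeq, limma and mm10. The aligner, annotation and strand setting were not given in the sources used here. Symbols and positions came from GENCODE M21 for 98.0% of 43346 genes, and all 37 mitochondrial genes were at 0.

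Counts of the 12 paired libraries were fitted with edgeR 4.0.16 (TMM scaling, filterByExpr with a minimum count of 10 and total of 15, region plus mouse, robust quasi-likelihood test, Benjamini-Hochberg adjustment, threshold 0.05), in R 4.3.3. CPM values used TMM scaling over 14 libraries (other regions: over the 43 libraries of the condition). The edgeR fits with the mouse term, in the 24 h saline mice, in the other mice and for the interaction, were tested on simulated counts. The alternatives were not. Alternatives used DESeq2 1.42.0, limma 3.58.1, other scaling, no filter, no mouse term and left-out mice. The numbers pair the regions because they name the animal; same-numbered libraries deviated together weakly (median correlation 0.093 over 6 pairs, -0.033 over 43 others).

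Genes named first were the 15 with the largest differences in each direction among protein-coding genes called with and without the Hipp-182 mouse, alike in sign in 6 of 6 mice, with a mean of at least 5 CPM in the higher region and outside the choroid plexus, leptomeningeal and blood lists. From each of 36 gene lists, the 2 largest called differences per direction were named. Some genes that these rules name are not reported here. The members and lists were chosen with earlier results of these data known. Gabra3 and other genes outside these rules (Ttr, Slc6a3, Th, C1ql2, Zbtb20, Foxp2, Prkcd, Tac2, Crh, Sst, Npy, Bdnf, Grin2a, Grik3, Vgll3 and Stag3) were named after their values were seen. P-values of the paired fits set the mean regional difference against how much that difference varied between these mice.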

Additional observations from a re-analysis of the deposited data

Results flagged for a closer look

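Each gene named and each list sum was searched within each region's 7 libraries. A group was marked where the highest or lowest library's gap to the next, as a share of the range, exceeded Dixon's 95% critical value. For independent, normally distributed values this happens in about 1 in 20 groups. It held in 35 of 346 groups (10.1%), of which 6 were in Hipp-191 and 6 in Hipp-182. Some genes, Ttr, Slc6a3 and Th among them, were named after their values were seen, and list sums contain such genes. The 10.1% therefore cannot be set against 1 in 20.

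Hipp-182 stood apart in the choroid plexus sum (24200 CPM), the leptomeningeal sum (681 CPM), the peptide and steroid receptor sum (1070 CPM), Ttr (17500 CPM), Six3 (2.29 CPM) and Gabre (1.05 CPM). Hipp-191 stood apart in the dopamine neuron sum (688 CPM), Slc6a3 (160.8 CPM), Th (76.4 CPM), Ddc (59.4 CPM), Drd2 (9.26 CPM) and the endothelial sum (617 CPM). Hipp-205 was high for Penk (40.9 CPM), Reln (240 CPM), Cacng5 (15.7 CPM) and Dkkl1 (4.53 CPM), and Hipp-204 for Chodl (0.604 CPM). Hipp-185 was high for Fibcd1 (616 CPM), the CA1 and subiculum sum (2170 CPM) and the dopamine, noradrenaline and histamine receptor sum (264 CPM). Hipp-201 was high for Calcr (1.27 CPM), Ccdc42 (1.12 CPM), Rspo1 (1.88 CPM) and Vgll3 (21.7 CPM), and Hipp-225 for Hapln2 (26.7 CPM) and Sox10 (41.7 CPM).

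Among BLA libraries, BLA-182 was apart for Gfap (253 CPM), BLA-185 for Sox11 (45.8 CPM) and the serotonin receptor sum (240 CPM), and BLA-193 for Epha5 (112 CPM) and Homer3 (5.81 CPM). BLA-205 was apart for Iyd (0.66 CPM), Sstr4 (8.42 CPM) and the astrocyte sum (6290 CPM), and BLA-225 for Tnc (21.9 CPM). The regional difference of Vgll3 was 3.24 log2 units higher in the 24 h saline mice than in the mice of the other 5 conditions, and that of Stag3 1.04 higher, by the interaction test.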

How the results depend on the processing

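With 1 mouse left out at a time, the number of genes higher in BLA ran from 1428 to 2370, that of lower genes from 1417 to 2599, and those at least 2-fold higher or lower from 531 to 768 and from 354 to 476. Without the Hipp-182 and Hipp-191 mice, a choice made after seeing the data, 872 were higher, 858 lower and 389 at least 2-fold higher. The fit without the replicate block over 14 libraries called 3033 higher and 3441 lower, both within 1.5 times the paired counts, and limma voom with the mouse as a random effect called 3495 higher. In the mice of the other conditions, single conditions called 2188 and 2093 (cocaine, 24 h), 1442 and 1569 (saline, then saline), 1843 and 1513 (saline, then cocaine), 2139 and 1827 (cocaine, then saline) and 1571 and 1434 (cocaine, then cocaine) genes higher and lower, with fewer mice in each. With no filter on low counts, those mice gave 1334 and 946 genes at least 2-fold higher and lower, over more genes tested. The interaction called 351 genes with DESeq2, 1 with limma voom and 0 without the filter. The cause was not tested.

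Of 137 genes named and tested, 134 kept their direction under each alternative and 91 also their side of the threshold. Rspo2 changed sign without the replicate block (0.06, or 0.03 without Hipp-182), with the mouse as a random effect (0.07), without the Hipp-191 or Hipp-204 mouse (-0.26 to 0.24 over the 6 mice left out in turn), without the Hipp-182 and Hipp-191 mice (0.09) and without the Hipp-204 and Hipp-205 mice (0.28). Th changed sign with limma voom (-1.69), without the block (-2.08 and -2.28) and without the Hipp-185 or Hipp-225 mouse (-0.16 to 1.4 over the 6). None of these passed the test. Ttr was at -5.55 without the block (adjusted p = 0.059) and, with Hipp-182 also left out, at 2.66 and past the threshold (adjusted p = 0.021). Without the block, Ddc no longer passed (adjusted p = 0.278) and Slc6a3 did (adjusted p = 0.024). Without the filter, 15 genes, Prox1 among them (adjusted p = 0.129), did not pass. What depth limits was not tested.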
